A study of Mus musculus with 6 samples.

Results

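The cells described here are microglia of the mouse brain, called P2ry12-high below. They were chosen by counts alone, mainly the sum of 4 microglial surface and receptor genes, P2ry12, Tmem119, Siglech and Gpr34. The name stands for this sum, and a member could lack any 1 of the 4. A cell barcode needed at least 300 detected genes and at most 10% mitochondrial UMIs (unique molecular identifiers, each standing for 1 captured RNA molecule), and the raw UMIs of the 4 markers had to sum to at least 8. Barcodes with 30 or more UMIs of Spp1, more than 2 of Cldn5 and Flt1 together (endothelial genes), or more than 1 of Mrc1, Pf4 and Cd163 together (border macrophage genes) were left out. The rule gave 7788 of the 58528 barcodes of the study, 5640 from sham and 2148 from MCAO libraries.

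The libraries came from brain tissue of C57BL/6 mice aged 6 to 8 weeks, collected 24 h after surgery, which was either a middle cerebral artery occlusion (the MCAO group, a model of ischemic stroke) or a sham operation. There were 6 droplet libraries, 3 per group, and neither group carried a transgene or further treatment in the labels. The labels do not say whether a library came from 1 animal or a pool, or which part and side of the brain was taken, so the tissue of an MCAO library may hold both injured and uninjured brain. Values of p therefore measure the spread between these libraries, which may be technical.

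Microglia are the resident macrophages of the brain parenchyma. In the healthy brain they survey tissue with motile processes, and their identity is kept by TGF-beta and by transcription factors such as Sall1 and Spi1. P2ry12 is a receptor for ADP. After injury they lose surface markers of the resting state, release cytokines and chemokines, take up debris and can divide, and these programmes are known to be partly separable.

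Microglial and macrophage genes that the rule did not use were high in the members of every library. Csf1r, C1qa, C1qb, Cx3cr1 and Trem2 each lay above every library's level in endothelial barcodes. Csf1r, the receptor on which microglial survival depends, was 2656, 2534 and 2548 CPM in the sham and 1586, 1576 and 1771 CPM in the MCAO libraries, against 132 CPM (UMI counts scaled to a common library total) in endothelial barcodes of the MCAO libraries. The members were fewer in MCAO. Sham libraries held 1909, 1693 and 2038 of them and MCAO libraries 758, 762 and 628, or 22.2, 20.3 and 20.8% and 6.61, 6.86 and 7.92% of the barcodes that passed the filters on genes and mitochondrial UMIs. These numbers are a description without a test, because the marker genes that define membership themselves differed between the groups. Fewer such cells and less marker RNA per cell cannot be told apart from them. Barcodes of microglial type with 30 or more UMIs of Spp1 made up 4.15% ± 0.468 of MCAO barcodes and were 1 barcode in the sham libraries together.

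The MCAO members also sat closer to the threshold. The median member of a sham library had 24, 23 or 24 UMIs of the 4 markers, and that of an MCAO library 13, 13 or 15, although the median total went from 2386, 2388 and 2473 to 3037, 2931 and 3500.5 UMIs. In the sham libraries 68.9 to 71.8% of members held 20 or more marker UMIs, and in the MCAO libraries 17.3 to 26.3%. Of the genes that chose the members, P2ry12 was 4129, 3997 and 3902 CPM in sham and 1103, 1081 and 988 CPM in MCAO. Tmem119, a membrane protein of unsettled function, was 2623, 2615 and 2536 CPM in sham and 1769, 1842 and 1826 CPM in MCAO. Siglech, a sialic acid-binding lectin, was 1201, 1118 and 1062 CPM in sham and 366, 379 and 358 CPM in MCAO. Gpr34, a receptor for lysophosphatidylserine, was 1877, 1777 and 1816 CPM in sham and 788, 788 and 677 CPM in MCAO. Because the sum of these 4 genes set membership, their levels in the members are partly fixed by the rule, and no order among them is drawn. Not every member held each gene. A UMI of P2ry12 was found in 99.6 to 99.9% of sham and 90.8 to 91.9% of MCAO members. For Siglech the shares were 90.4 to 91.9% and 69.8 to 74.2%. Spp1, the secreted protein osteopontin, which the rule only caps, was 10.51, 12.1 and 13.7 CPM in sham and 1010.3, 968 and 703 CPM in MCAO. Endothelial barcodes of MCAO held more of it, 1875, 1998 and 1732 CPM, and its part in the members' Spp1 was not tested. Just inside the threshold, members with 8 or 9 marker UMIs held 1279 to 1472 CPM of Cx3cr1 in the MCAO libraries, and barcodes with 6 or 7 held 1327 to 1386 CPM. In sham the 2 sides differed, with 2557 to 2778 CPM inside and 1086 to 2129 CPM outside, over few barcodes (18, 27 and 21 inside and 18, 16 and 16 outside).

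**Figure D1:**
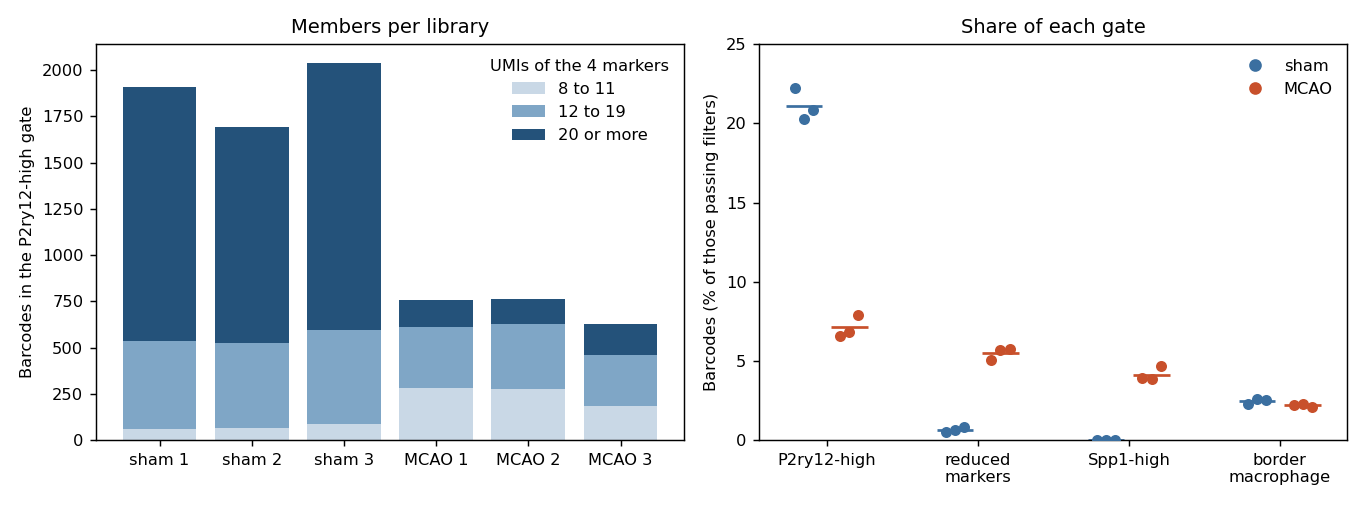
Left, number of barcodes in the P2ry12-high gate per library (y axis), stacked by the raw UMIs of the 4 marker genes. Right, share of the filtered barcodes of each library (y axis, percent) that fell in the P2ry12-high gate and in 3 related gates, with 1 point per library and a line at the mean of 3 libraries. The 3 sham libraries hold 1693 to 2038 members and the 3 MCAO libraries 628 to 762, with most sham members at 20 or more marker UMIs.

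The summed profiles of the members held 4303884 to 5338536 UMIs in sham and 2664663 to 2758592 in MCAO. Between 77 and 184 barcode sequences were shared by any pair of libraries, and 1952 of 56538 distinct sequences occurred in more than 1. RNA of other cells was measurable in the members. Marker genes of astrocytes summed to 578 to 709.8 CPM in sham and 679 to 1230.0 CPM in MCAO, those of monocyte-derived cells to 147 to 193 CPM in sham and 244 to 336 CPM in MCAO, those of erythrocytes to 13.7 to 32.6 CPM in sham and 95.2 to 165 CPM in MCAO and those of endothelial cells to 1477 to 1912 CPM in sham and 991 to 1339.8 CPM in MCAO. Dendritic cell markers summed to 52.7 to 58.1 CPM in sham and 101 to 104 CPM in MCAO, border macrophage markers to 290.5 to 302 CPM in sham and 323 to 330.2 CPM in MCAO and B cell markers to 71.9 to 82.05 CPM in sham and 41.7 to 55.8 CPM in MCAO, each without overlap of the groups. Of the 12 astrocyte markers 5 were higher and 1 lower, and of the 11 tested monocyte-derived ones 6 were higher. Of the 4 tested erythrocyte markers all 4 were higher, and of the 3 tested dendritic ones 1. The endothelial sum includes Cldn5 and Flt1, and the border macrophage sum Mrc1, Pf4 and Cd163. The rule caps these genes, so both sums are a description only. Choroid plexus markers, nearly all Ttr, summed to 6467 to 7774 CPM in sham and 3973 to 7652 CPM in MCAO. The part of such RNA in the results was not tested, and the level in endothelial barcodes is given beside the genes it touches most.

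Which genes differed between MCAO and sham in these members was asked with edgeR's quasi-likelihood test on counts summed per library (n = 3 libraries per group). Of 10897 genes tested, 2482 (22.8%) rose and 2416 (22.2%) fell at a Benjamini-Hochberg adjusted p under 0.05, which is 44.9% of all genes. The counts of each list below stand beside these shares. Calls of at least 2-fold were 9.6%, and groups that did not overlap were 53.6%. Changes below are log2 ratios, MCAO to sham, with their SE, and levels are CPM after TMM scaling, as mean ± SD of 3 libraries where no library is given. The median change of all genes was -0.03. Counts of calls fell when members were held to a narrow depth or to many marker UMIs. Of 10056 genes 1605 rose and 1411 fell among barcodes of 2000 to 4000 UMIs. Of 9635 genes 1500 rose and 1246 fell among members with 20 or more marker UMIs in both groups. With barcodes thinned to 2000 UMIs before the gate, 1585 of 10245 rose and 1358 fell. With Spp1 under 3 UMIs, 1588 of 10342 rose and 1312 fell.

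The largest changes below are those among genes with a mean of at least 50 CPM, no overlap of the groups and a level of at least 10% of that in the highest comparison gate, so a few genes with larger changes, such as Cxcl2 (5.68) and Il1rn (5.84), are described with their lists. Msr1, the class A scavenger receptor (chr8:39581685-39642673, mm10), was 3.77, 2.49 and 3.27 CPM in the sham and 146, 139 and 175 CPM in the MCAO libraries, a change of 5.57 ± 0.14 (adjusted p = 2.5e-17). The groups lay far apart, and endothelial barcodes of MCAO held 39.1 CPM. Lilrb4a, an inhibitory immunoglobulin-like receptor, was 5.45, 5.43 and 8.55 CPM in the sham and 227, 255 and 337 CPM in the MCAO libraries, a change of 5.36 ± 0.26 (adjusted p = 3.06e-05), with 97.8 CPM in endothelial barcodes. Cd72, another inhibitory receptor, rose from 13.01 ± 2.75 to 155 ± 29.05 CPM (3.55), and Lpl, lipoprotein lipase, from 21.01 ± 3.08 to 234 ± 63.96 CPM (3.46). The remaining rises were of 5 cytokines and chemokines described further on (Ccl7, Cxcl10, Tnf, Ccl12 and Ccl4) and of 3 genes of signalling and matrix. Phlda1, a signal-induced adaptor, rose from 20.3 ± 0.412 to 153 ± 24.8 CPM (2.91). Cdkn1a, the cell cycle inhibitor p21, rose from 59.2 ± 2.998 to 395 ± 22.9 CPM (2.74) but stood higher still in endothelial barcodes of MCAO, at 1037 CPM. Adamts1, a secreted protease of the matrix, rose from 59.8 ± 5.84 to 370.0 ± 16.9 CPM (2.62), against 254 CPM there.

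Among the largest falls, Hist2h2aa1, a histone gene whose near-identical copy may share its reads, was 333, 345 and 393 CPM in the sham and 43.3, 70.5 and 66.3 CPM in the MCAO libraries, a change of -2.58 ± 0.17 (adjusted p = 5.26e-05). Hist4h4, a histone H4 gene and as uncertain for the same reason, was -1.58. Zeb1, a zinc finger repressor, fell from 81.9 ± 16.5 to 21.1 ± 5.01 CPM (-1.95), and Lst1, a leukocyte membrane protein, from 276 ± 9.98 to 71.9 ± 7.73 CPM (-1.94). Ptpro, a receptor tyrosine phosphatase, was 148, 173 and 181 CPM in the sham and 50.3, 48.7 and 43.5 CPM in the MCAO libraries, so that the lowest sham library stood well above the highest MCAO library (-1.82 ± 0.09, adjusted p = 1.22e-12). Hpgd, which inactivates prostaglandin E2 (chr8:56294585-56321043, mm10), was 399, 398 and 393 CPM in the sham and 138, 143 and 139.6 CPM in the MCAO libraries, a change of -1.50 ± 0.06 (adjusted p = 1.54e-14). The others were Zfp691 (-1.77), Ifitm10 (-1.72), Gng10 (-1.62), Col27a1 (-1.58), Ramp1 (-1.52) and Snn (-1.50), each from under 300 CPM in sham.

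**Figure D2:**
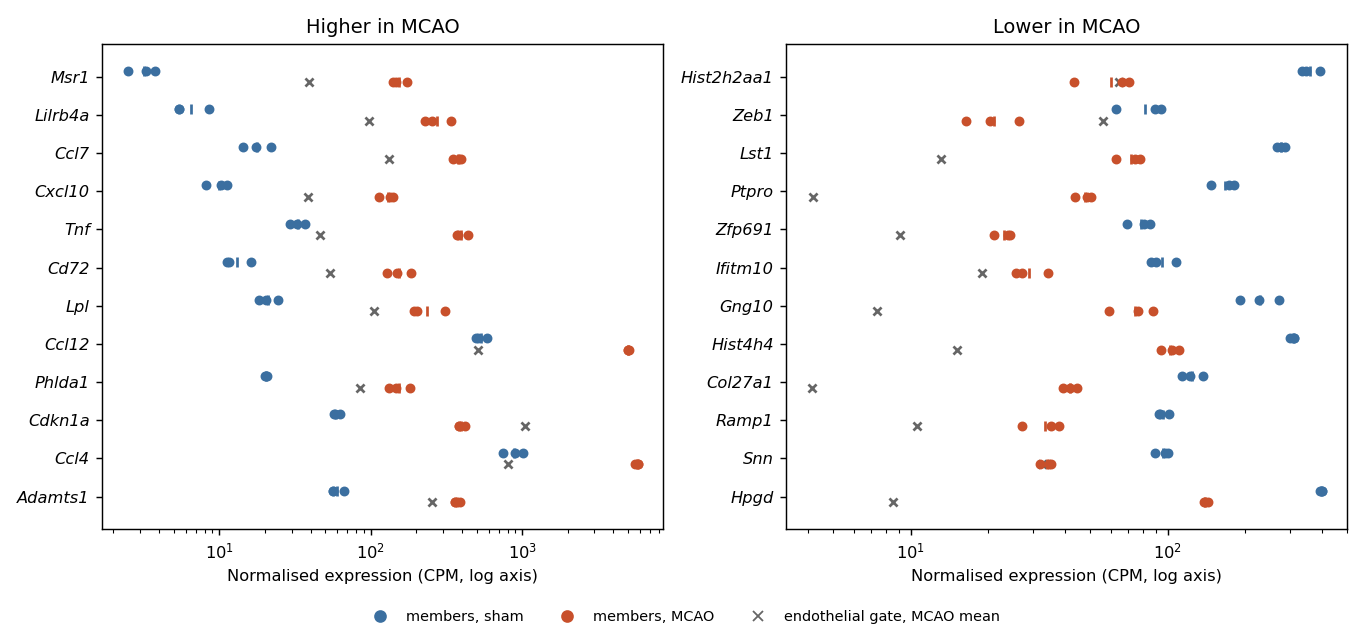
Normalised expression (x axis, CPM, log scale) of the 12 genes with the largest rises and the 12 with the largest falls among genes with a mean of at least 50 CPM, no overlap of the groups and at least 10% of the level in the highest comparison gate, 1 point per library and a tick at the group mean; crosses give the mean of endothelial barcodes in MCAO. Sham and MCAO libraries do not overlap for any of the 24, and Cdkn1a stands higher in endothelial barcodes (1037 CPM) than in the members.

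Genes of resting microglia that the rule did not use fell almost together. Of 44 tested, 40 fell and 2 rose, with a median of -0.78, where 22.2% of all genes fell. Upk1b, a uroplakin tetraspanin, was 71.5, 66.5 and 62.6 CPM in the sham and 6.604, 10.3 and 6.67 CPM in the MCAO libraries, so every MCAO library was far below every sham library (-3.08 ± 0.15, adjusted p = 7.74e-13). Slc2a5, the fructose transporter GLUT5 that marks microglia in brain (chr4:150119283-150144169, mm10), was 322, 299 and 291 CPM in the sham and 118, 103 and 111 CPM in the MCAO libraries, a change of -1.46 ± 0.07 (adjusted p = 2.68e-13). Cx3cr1, the fractalkine receptor by which neurons restrain microglia, was 3195, 2978 and 2832 CPM in the sham and 1517, 1563 and 1804 CPM in the MCAO libraries (-0.88 ± 0.07). Cst3, the protease inhibitor cystatin C and the most abundant of them, fell from 54632 ± 3614 to 27719.6 ± 611 CPM (-0.98). The 2 that rose were Fcrls, an Fc receptor-like scavenger receptor, from 1878 ± 58.4 to 2265 ± 99.9 CPM (0.27), and Sgk1, a kinase induced by glucocorticoids, from 1052 ± 73.5 to 1437 ± 54.7 CPM (0.45). Cd81 (-0.06) did not pass. In members with 20 or more marker UMIs in both groups, 36 of the 44 fell and 2 rose, with a median of -0.54. The median was -0.47 where barcodes were thinned to 2000 UMIs before the gate, -0.56 among barcodes of 2000 to 4000 UMIs and -0.587 in members with Spp1 under 3 UMIs. In these 4 alternatives it was not the lowest of the 29 lists, since the clock genes (-0.68 at 20 or more marker UMIs, -0.597 after thinning and -0.595 with Spp1 under 3) or the interferon genes (-0.58 at 2000 to 4000 UMIs) lay lower. Slc2a5 changed by -0.97 at 20 or more marker UMIs and -0.88 after thinning.

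Transcription factors that hold microglial identity split. Of 20, 12 fell and 2 rose (median -0.39). Sall1, which keeps microglia from taking on a general macrophage state, was 128, 125 and 126 CPM in the sham and 45.9, 49.4 and 44.3 CPM in the MCAO libraries, with no overlap and little spread within a group (-1.44 ± 0.08, adjusted p = 3.68e-12). Maf, a bZIP factor of resident macrophages, was 361, 369.7 and 314 CPM in the sham and 125, 130.2 and 176 CPM in the MCAO libraries (-1.28 ± 0.14). Spi1, which encodes PU.1, fell from 495 ± 1.41 to 429 ± 18.9 CPM (-0.21) and Irf8, its partner, from 659 ± 33.2 to 547 ± 26.96 CPM (-0.27). Runx1, a factor of haematopoiesis and of activated microglia, rose from 80.4 ± 2.76 to 148 ± 2.89 CPM (0.88), and Bhlhe41, a repressor shared with the clock, by 0.21. Among barcodes of 2000 to 4000 UMIs 7 of these factors fell and 3 rose, and the change of Runx1 was 0.55 at 20 or more marker UMIs.

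The TGF-beta pathway, which supplies the signal for that identity, had 10 of 17 tested genes lower and 3 higher (median -0.41). The receptor Tgfbr1 was 597, 597 and 589 CPM in the sham and 246, 263 and 261 CPM in the MCAO libraries (-1.21 ± 0.05, adjusted p = 2.34e-13), and Pmepa1, a target and feedback inhibitor, fell from 203 ± 6.45 to 92.8 ± 7.67 CPM (-1.13 ± 0.07). The changes were -0.80 for Tgfbr1 after thinning and -0.74 for Pmepa1 at 20 or more marker UMIs. The ligand Tgfb1 fell by 0.64 and so did integrin subunits that can activate it, Itgav (-0.600) and Itgb5 (-0.65). Nrros, which tethers latent TGF-beta on microglia, rose from 195 ± 10.8 to 278 ± 12.7 CPM (0.51), as did Skil (0.27) and the corepressor Tgif1 (0.68). Among receptors for nucleotides and the enzymes that degrade them, 4 of 11 fell and 5 rose. The falls included these: P2ry13, a second ADP receptor, fell from 565 ± 16.2 to 291 ± 10.1 CPM (-0.96), Entpd1, the ectonucleotidase CD39, from 188 ± 15.5 to 118 ± 5.52 CPM (-0.67), and P2rx7, an ATP-gated channel, from 64.2 ± 4.64 to 44.4 ± 1.63 CPM (-0.53). The rises were P2rx4 (from 95.7 ± 8.63 to 110.3 ± 7.11 CPM) and 4 genes under 10 CPM. The change of Entpd1 was -0.29 among barcodes of 2000 to 4000 UMIs and -0.30 after thinning. In members with 20 or more marker UMIs none of the 10 purinergic genes tested rose and 4 fell.

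**Figure D3:**
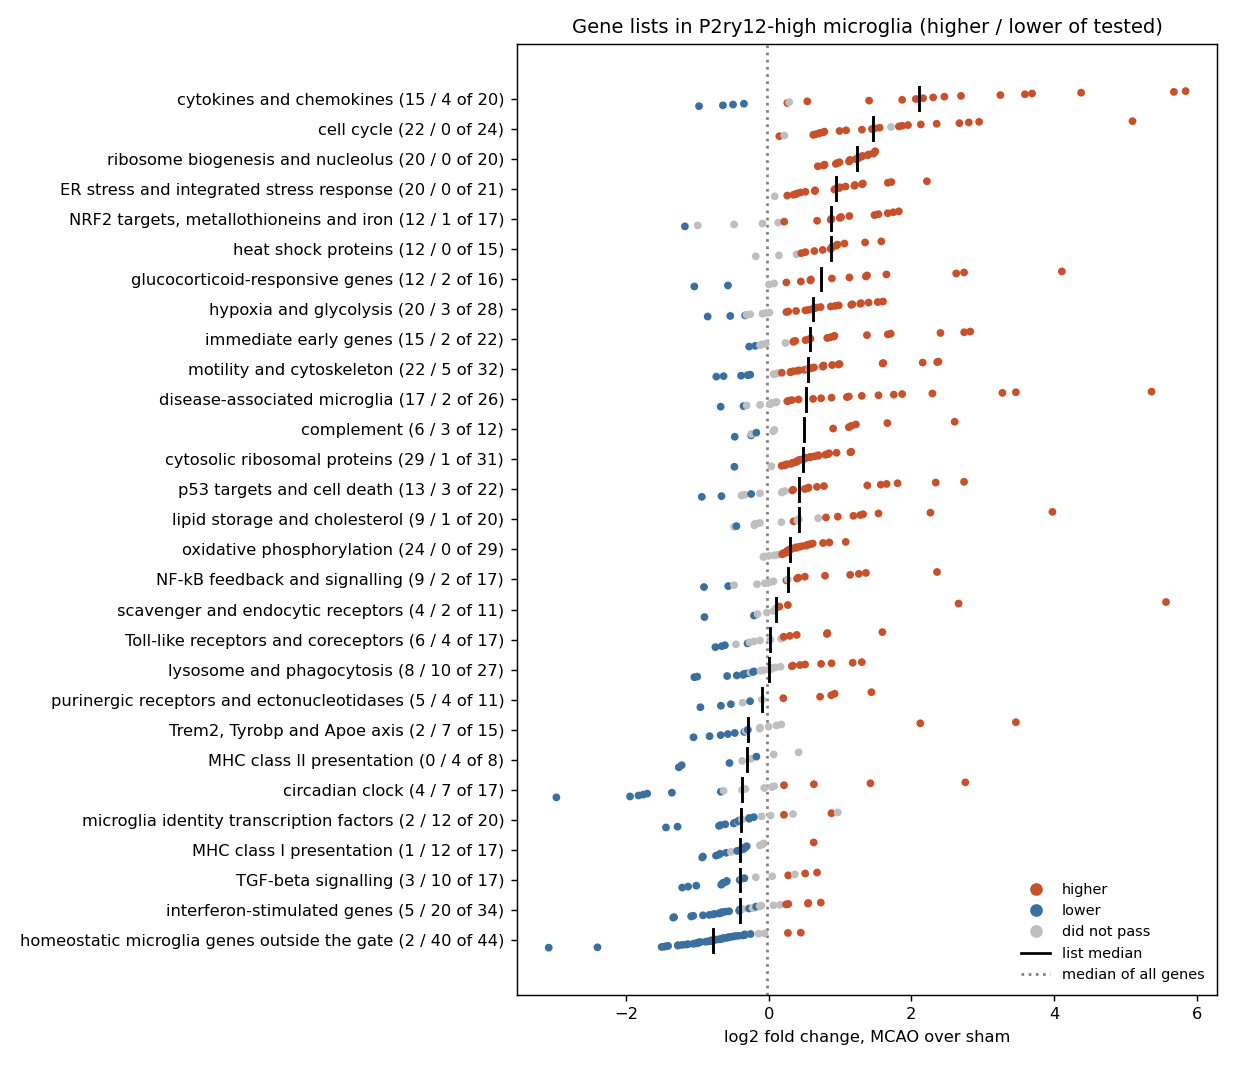
Change of each tested gene (x axis, log2 of MCAO over sham) in 29 gene lists (rows), coloured by call; black ticks are list medians and the dotted line is the median of all genes (-0.03). Cytokines and chemokines have the highest median (2.11), and the genes of resting microglia, at -0.78, the lowest with all members.

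Cytokines and chemokines had the highest median of the 29 lists (2.11), with 15 of 20 genes higher and 4 lower, where 22.8% of all genes rose. Ccl12, a ligand of the monocyte receptor Ccr2 (chr11:82101845-82103400, mm10), was 508, 588 and 496 CPM in the sham and 5022, 5002 and 5065 CPM in the MCAO libraries, a change of 3.25 ± 0.06 (adjusted p = 6.51e-19). Ccl4, a chemokine that attracts monocytes and T cells, was 1015, 743 and 889 CPM in the sham and 5792, 5547 and 5807 CPM in the MCAO libraries (2.69 ± 0.11). Tnf, the proinflammatory cytokine, was 36.9, 32.4 and 29.5 CPM in the sham and 377, 373 and 437 CPM in the MCAO libraries (3.59 ± 0.09, adjusted p = 1.61e-16). Endothelial barcodes of MCAO held 514, 811 and 46.1 CPM of these 3, well under the members. Ccl7 rose from 17.8 ± 3.804 to 374 ± 23.1 CPM (4.38), Ccl2 from 312 ± 37.1 to 1715 ± 115 CPM (2.46) and Ccl3 from 558 ± 41.7 to 2331 ± 235 CPM (2.06). Il1b, interleukin 1 beta, was 8.96 and 44.5 CPM in sham and MCAO, with 28.6 CPM in endothelial barcodes of MCAO. Il1rn, its natural antagonist, was 0.412 and 25.4 CPM, with 25.5 CPM in those barcodes, so its level in the members did not exceed theirs. Il1a, the other interleukin 1, rose less, from 83.1 ± 6.301 to 121 ± 12.6 CPM (0.54). Lower were Il6 (-0.98), Tgfb1 (-0.64), Il18 (-0.50) and Ccl9 (-0.35), and Ccl5 did not pass.

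Most MCAO members held UMIs of cytokine genes. With each barcode thinned to 1500 UMIs, 33.8% ± 1.82 of sham and 86.3% ± 1.74 of MCAO members held at least 3 UMIs of 8 cytokine genes (Ccl2, Ccl3, Ccl4, Ccl7, Ccl12, Tnf, Il1a and Il1b). Unthinned, the shares were 45.4% ± 0.921 and 95.2% ± 0.884. Endothelial barcodes gave 1.07% ± 0.153 and 22.4% ± 4.14 at the same depth. Whether those UMIs were their own or free RNA, and the part of free RNA in the members' shares, was not tested. In the endothelial gate 1000 barcodes per library were drawn. Thinning left out 45 sham and 2 MCAO members.

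Upstream signalling changed less evenly. Of 17 NF-kB genes 9 rose and 2 fell. Nfkbia, the inhibitor induced by NF-kB itself, was 759, 663 and 687 CPM in the sham and 1732, 1689 and 2002 CPM in the MCAO libraries (1.36 ± 0.07). Nfkbiz rose from 93.9 ± 13.8 to 226 ± 5.86 CPM (1.26) and Nfkbid, another inhibitor-like protein, by 1.14. In members with 20 or more marker UMIs 5 rose. The subunit Nfkb1 fell from 98.3 ± 3.901 to 52.5 ± 1.74 CPM (-0.91), and Rela (0.07) and Relb (0.01) did not pass. Among Toll-like receptors and their coreceptors 6 of 17 rose and 4 fell (58.8% called, beside 44.9% of all genes). Tlr2, a receptor for lipoproteins, rose from 67.4 ± 2.38 to 203 ± 35.9 CPM (1.59) and Cd14, its coreceptor, from 493 ± 12.02 to 869 ± 99.4 CPM (0.82), while Tlr4 (-0.27) and Tlr7 (0.18) did not pass. Tlr3 fell by 0.75 and Unc93b1, which carries nucleic acid-sensing receptors to endosomes, fell from 1156 ± 43.1 to 733 ± 35.2 CPM (-0.66). Tlr1 rose by 0.82 but not among barcodes of 2000 to 4000 UMIs, where its adjusted p was 0.235 and the change of Tlr2 was 0.86. The change of Cd14 was 0.52 at 20 or more marker UMIs.

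Genes induced by interferon went the other way from the cytokines. Of 34, 20 fell and 5 rose (median -0.41). Ifit3, an antiviral RNA-binding protein, was 116, 120.1 and 132 CPM in the sham and 79.2, 75.1 and 52.6 CPM in the MCAO libraries (-0.83 ± 0.12), and its near-identical neighbour Ifit3b, with which it can share reads, fell by 1.34 (a change of -2.13 among barcodes of 2000 to 4000 UMIs). Oasl2 fell from 70.00 ± 3.53 to 32.97 ± 2.67 CPM (-1.08), Rtp4 from 348 ± 7.804 to 167 ± 13.3 CPM (-1.05) and Irf7, the amplifier of the response, from 102 ± 11.2 to 69.8 ± 0.759 CPM (-0.55). The 5 that rose were Rsad2, Zbp1, Ifi204, Ifitm3 and Bst2, by 0.24 to 0.73. Isg15 did not pass (0.16). Endothelial barcodes of MCAO held more than the members of Ifit3 (189.8 CPM), Irf7 (273 CPM) and Isg15 (389 CPM). Among barcodes of 2000 to 4000 UMIs 20 of 33 fell and none rose, and among members with 20 or more marker UMIs 11 fell and 4 rose. At 1500 UMIs, 51.1% ± 1.65 of sham and 26.8% ± 1.16 of MCAO members held at least 2 UMIs of 12 interferon genes, against 71.1% ± 2.04 and 55.6% ± 3.22 unthinned and 89.9% ± 1.12 and 55.1% ± 1.29 of endothelial barcodes.

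Some promoters of these genes hold the elements of interferon factors and NF-kB, and those below were chosen after the values were seen, as examples of a list that fell and a list that rose. The windows hold 20 bases on each side of a match within the 250 bases before the start of the gene, from RefSeq (GRCm38.p6), on the strand of the gene, with the match in capitals. The interferon-stimulated element was searched on both strands as GAAA, any 2 bases and GAAA, and the NF-kB element as GGGA, any 2 bases and TTCC.
Ifit3, interferon element (chr19:34583387-34583436, + strand): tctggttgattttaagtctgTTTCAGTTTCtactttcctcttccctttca
Ifit1, interferon element (chr19:34640784-34640833, + strand): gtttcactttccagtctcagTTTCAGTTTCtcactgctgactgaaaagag
Trim30a, interferon element (chr7:104465200-104465249, - strand): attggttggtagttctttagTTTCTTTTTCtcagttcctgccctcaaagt
Cxcl10, interferon element (chr5:92349073-92349122, - strand): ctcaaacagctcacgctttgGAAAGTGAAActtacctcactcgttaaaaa
Cxcl10, NF-kB element (chr5:92349019-92349068, - strand): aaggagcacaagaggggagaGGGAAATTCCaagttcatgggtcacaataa
Cxcl2, NF-kB element (chr5:90903783-90903832, + strand): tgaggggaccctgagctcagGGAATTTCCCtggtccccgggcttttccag

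Ifit3 and Ifit1 carry the same 10 capital letters, which are the element read from the other strand, as is that of Trim30a and the NF-kB match of Cxcl2. The interferon element occurred in 14 of 27 promoters of the interferon list (51.9%) and in 3.46% of the 27025 promoters of the table. Of the 13 list genes with it that were tested, 6 fell, 2 rose and 5 did not pass, and of the 13 without it 9 fell and 1 rose. The NF-kB element occurred in 5 of 15 cytokine promoters (33.3%) and in 1.36% of all. Cxcl10, a chemokine induced by interferon and by NF-kB, holds both, with the interferon element 203 and the NF-kB element 149 bases before the start. It was 10.3, 8.14 and 11.3 CPM in the sham and 134, 113 and 140.4 CPM in the MCAO libraries (3.69 ± 0.12, adjusted p = 1.1e-15) and so rose with the cytokines. Its change was 1.67 among barcodes of 2000 to 4000 UMIs. Cxcl2, a ligand of the neutrophil receptor Cxcr2, rose from 2.86 ± 0.9299 to 145 ± 10.52 CPM (5.68 ± 0.14), with 110.3 CPM in endothelial barcodes of MCAO. Trim30a and Ifit1 fell (-0.76 and -0.40). A match describes these letters only.

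Most class I genes, which present antigen to cytotoxic T cells, also fell. Of 17 MHC class I genes 12 fell and 1 rose (median -0.40). Psmb9, a subunit of the immunoproteasome, fell from 122 ± 6.76 to 64.2 ± 5.81 CPM (-0.93), H2-T23 from 183 ± 21.9 to 109.9 ± 5.51 CPM (-0.74), H2-Q7, a class Ib gene with close copies, by -0.92, and B2m, the light chain of every class I molecule, from 6984 ± 668 to 5473 ± 199.7 CPM (-0.35). The classical heavy chains H2-K1 and H2-D1, whose reads can be split with related genes, fell (-0.33 and -0.40). Erap1, a trimming peptidase, rose by 0.63. Of 8 class II genes 4 fell and none rose (50% called, beside 44.9% of all genes). H2-Oa, part of the modulator of peptide loading, fell from 78.1 ± 3.35 to 32.6 ± 3.69 CPM (-1.26) and H2-DMa from 387 ± 11.6 to 264 ± 20.7 CPM (-0.55). Cd74, the invariant chain (244 and 327 CPM in sham and MCAO, adjusted p = 0.485) and H2-Ab1 did not pass, and endothelial barcodes of MCAO held 258 and 75.5 CPM of them. H2-DMb1 fell by 0.17. It did not pass without library 1 or library 3 of either group (adjusted p 0.0516 to 0.146), and its change was 0.02 (adjusted p = 0.921) in members with 20 or more marker UMIs. Among barcodes of 2000 to 4000 UMIs 4 class II genes fell and 2 rose, with a median of 0.07, and H2-DMa changed by -0.35.

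Of 26 genes of disease-associated microglia, a state first defined around amyloid plaques, 17 rose and 2 fell (median 0.52), and 13 of 24 rose and 4 fell among barcodes of 2000 to 4000 UMIs. Lgals3, galectin 3, was 13.8, 21.3 and 33.1 CPM in the sham and 215, 248 and 209 CPM in the MCAO libraries (3.28 ± 0.29, adjusted p = 0.000959), with 138 CPM in endothelial barcodes of MCAO. Cst7, cystatin F, rose from 14.4 ± 2.87 to 71.8 ± 11.3 CPM (2.29) with only 5.96 CPM there, and the tetraspanin Cd63 rose from 629.6 ± 17.3 to 2123 ± 98.04 CPM (1.75). Trem2, the receptor on which the later stage of that state depends, fell from 2266 ± 67.2 to 1422 ± 54.8 CPM (-0.67, adjusted p = 9.23e-10). Its adaptor Tyrobp (-0.12), the lipid carrier Apoe (2321 and 2506 CPM in sham and MCAO, 0.11) and the kinase Axl (0.04) did not pass. In the list built around Trem2, 7 of 15 fell and 2 rose, and in members with Spp1 under 3 UMIs 4 fell and 2 rose. Cd33, a sialic acid-binding inhibitory receptor, fell from 223 ± 10.6 to 108 ± 9.42 CPM (-1.05), Inpp5d, the phosphatase SHIP1, from 258 ± 14.2 to 146 ± 8.65 CPM (-0.83), and Ms4a6d rose from 149 ± 2.28 to 649.8 ± 36.6 CPM (2.12).

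Lysosomal and uptake genes moved in both directions. Of 27, 8 rose and 10 fell (66.7% called, beside 44.9% of all genes), and among barcodes of 2000 to 4000 UMIs 5 and 7. The rises were led by cathepsins: Ctsb was 2277, 2137 and 2251 CPM in the sham and 5176, 5435 and 5858 CPM in the MCAO libraries (1.30 ± 0.05), and Ctsc rose from 623 ± 20.8 to 1409 ± 27.6 CPM (1.18). The change of Ctsb was 0.74 among barcodes of 2000 to 4000 UMIs. Mertk, a receptor with which microglia clear apoptotic cells, was 293, 291 and 289 CPM in the sham and 137, 136 and 151 CPM in the MCAO libraries (-1.04 ± 0.06), and the cathepsins Ctsf (234 and 117 CPM in sham and MCAO), Ctsh (-0.36) and Ctss (-0.22) fell. Of 11 scavenger and Fc receptors 4 rose and 2 fell (54.5% called, beside 44.9% of all genes). Beside Msr1 they included Fcgr3, which rose from 1646 ± 4.41 to 1984 ± 128 CPM (0.27), and Clec4a3, which fell from 154 ± 9.03 to 82.3 ± 1.19 CPM (-0.90). The change of Fcgr3 was 0.41 among barcodes of 2000 to 4000 UMIs, and that of Clec4a3 -0.54 after thinning. In members with 20 or more marker UMIs 2 of 10 rose and 1 fell. Of 12 complement genes 6 rose and 3 fell. The receptors rose: C5ar1, the receptor of the anaphylatoxin C5a (chr7:16246743-16259540, mm10), was 198, 186 and 168 CPM in the sham and 1139.9, 1049 and 1167 CPM in the MCAO libraries (2.61 ± 0.07, adjusted p = 2.5e-17), and C3ar1 rose from 197 ± 5.56 to 439.7 ± 18.4 CPM (1.16). The subunits of C1q, among the most abundant RNAs of the cells, changed little. C1qa went from 8610.1 ± 363 to 8996 ± 524 CPM (0.06 ± 0.05) and C1qb by 0.08, neither past the threshold, and C1qc fell by 0.17. In members with 20 or more marker UMIs 4 of 11 rose and 1 fell.

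Genes of protein folding and stress rose almost throughout. Of 21 genes of endoplasmic reticulum stress and the integrated stress response 20 rose and none fell (median 0.94). Hspa5, the chaperone BiP, was 953, 939 and 919 CPM in the sham and 2985, 3009 and 3258 CPM in the MCAO libraries (1.72 ± 0.05, adjusted p = 3.73e-16), and Atf3, a stress-induced repressor, was 158, 137 and 145 CPM in the sham and 426, 468 and 509 CPM in the MCAO libraries (1.67 ± 0.07). Sdf2l1, a cofactor of BiP, rose by 1.32. Of 15 heat shock genes 12 rose and none fell. Hspd1, the mitochondrial chaperonin HSP60, was 73.8, 87.1 and 76.4 CPM in the sham and 244, 226 and 237 CPM in the MCAO libraries (1.58 ± 0.07), and its partner Hspe1 rose from 226 ± 8.26 to 413 ± 25.6 CPM (0.87). Hspa1b (1.35) and Hspa1a (0.76) are near-identical copies, so the split between them is uncertain. Hsph1, of the HSP110 family, rose by 1.06. The heat shock element, searched on both strands as GAA, any 2 bases, TTC, any 2 bases and GAA, was found in 2 of 10 promoters of the list and in 0.514% of all, and the Hspd1 promoter shows it on the strand of the gene:
Hspd1, heat shock element (chr1:55088039-55088091, - strand): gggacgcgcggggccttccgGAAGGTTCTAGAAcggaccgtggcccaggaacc

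Metabolic genes rose in several groups. Of 28 genes of hypoxia and glycolysis 20 rose and 3 fell (median 0.61). Pkm, the pyruvate kinase, was 264, 262 and 281 CPM in the sham and 759, 729 and 841 CPM in the MCAO libraries (1.53 ± 0.06, adjusted p = 3.13e-14), with 853 CPM in endothelial barcodes of MCAO. Mif, a cytokine-like tautomerase, rose from 170.5 ± 1.37 to 518 ± 18.8 CPM (1.602), Slc16a3, the lactate exporter MCT4, from 36.7 ± 2.32 to 89.5 ± 4.81 CPM (1.28), and Gapdh from 415 ± 23.8 to 936 ± 67.1 CPM (1.17). Hk2, hexokinase 2, did not pass (444 and 372 CPM), and Pdk1, which holds pyruvate from mitochondria, fell from 69.6 ± 4.17 to 38.6 ± 5.84 CPM (-0.85), as did Bnip3 (-0.33) and Bnip3l (-0.54). Among barcodes of 2000 to 4000 UMIs the changes of Pkm, Mif and Slc16a3 were 0.81, 0.72 and 0.72. The core of the hypoxia element, ACGTG on either strand, which also lies within the E-box CACGTG, was found in 17 of 27 promoters of the list (63.0%) and in 18.5% of all. The match in Pkm reads from the other strand:
Pkm, hypoxia element (chr9:59657132-59657176, + strand): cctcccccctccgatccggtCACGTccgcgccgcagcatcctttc

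Of 17 genes of the NRF2 response, metallothioneins and iron 12 rose and 1 fell. Hmox1, heme oxygenase 1, was 64.96, 59.05 and 69.1 CPM in the sham and 183, 225 and 207 CPM in the MCAO libraries (1.67 ± 0.08), and Mt2, a zinc-binding metallothionein, rose from 53.9 ± 12.6 to 191 ± 16.1 CPM (1.82), although endothelial barcodes of MCAO held 1269.6 CPM of it. Mt1, a second one, rose by 1.54. The ferritin chains Fth1 and Ftl1 rose from 3591 ± 121 to 7256 ± 476 CPM and from 4425 ± 169.8 to 8835 ± 381 CPM, changes of 1.01 and 0.998. Slc40a1, the iron exporter ferroportin, fell from 119.7 ± 4.26 to 53.1 ± 6.64 CPM (-1.17). Of 20 genes of lipid storage and cholesterol 9 rose and 1 fell (50% called, beside 44.9% of all genes). Plin2, which coats lipid droplets, was 38.6, 47.96 and 43.1 CPM in the sham and 191, 219.9 and 213 CPM in the MCAO libraries (2.27 ± 0.08), with 204 CPM in endothelial barcodes, and Soat1, which esterifies cholesterol, rose from 37.8 ± 3.299 to 65.9 ± 3.07 CPM (0.80). Insig1, a regulator of sterol synthesis, rose by 1.32. Only 5 of 16 lipid genes rose among barcodes of 2000 to 4000 UMIs, and Hilpda (0.97) was no longer called there (adjusted p = 0.169).

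Growth genes rose with few exceptions. All 20 genes of ribosome biogenesis rose (median 1.24). Nop56, a nucleolar protein of box C/D particles, was 104, 84.8 and 92.6 CPM in the sham and 262, 246 and 285 CPM in the MCAO libraries (1.49 ± 0.07, adjusted p = 2.97e-12), and Nhp2 and Nop58 rose by 1.49 and 1.48. Of 31 cytosolic ribosomal proteins 29 rose, Rpsa the most (from 286 ± 15.6 to 637 ± 32.7 CPM, 1.16), then Rps2 (1.15) and Rplp0 (0.95), and Rps27 fell by 0.48. Of 29 nuclear genes of oxidative phosphorylation 24 rose and none fell, Cycs, cytochrome c, the most (from 171 ± 6.85 to 362 ± 20.2 CPM, 1.08), then Cox5a (0.85) and Atp5g1 (0.76). At 2000 to 4000 UMIs per barcode, 15 of 31 ribosomal proteins and 10 of 29 oxidative phosphorylation genes rose, while 20 of 20 ribosome biogenesis genes did. The changes there were 0.70 for Rpsa, 0.73 for Rps2, 0.57 for Rplp0, 0.41 for Atp5g1 and 0.57 for Cox5a.

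Of 24 cell cycle genes 22 rose and none fell (median 1.47). Mcm6, a subunit of the replicative helicase, was 11.9, 10.2 and 10.4 CPM in the sham and 41.8, 45.6 and 38.4 CPM in the MCAO libraries (1.95 ± 0.14, adjusted p = 2.28e-10), and Myc, which drives growth and entry into the cycle, was 38.8, 41.2 and 40.7 CPM in the sham and 149, 142 and 150.2 CPM in the MCAO libraries (1.87 ± 0.07). Mcm7, of the same helicase, rose by 1.45, Mcm5 from 4.25 ± 0.377 to 29.7 ± 2.799 CPM (2.80), Rrm2, of nucleotide synthesis, from 1.68 ± 0.578 to 10.97 ± 4.88 CPM (2.67), and Ccnd1 from 71.3 ± 6.76 to 122 ± 8.33 CPM (0.78). Among barcodes of 2000 to 4000 UMIs 15 of 19 rose, with Mcm6 at 1.19 and Mcm7 at 0.74, and in members with Spp1 under 3 UMIs 13 of 19. Genes of mitosis were at low levels. Cdk1 rose from 5.49 ± 1.63 to 19.1 ± 6.95 CPM (1.83) and Top2a from 2.53 ± 1.09 to 11.4 ± 1.296 CPM (2.13), while Birc5 did not pass (1.74 and 5.97 CPM, adjusted p = 0.156). At 1500 UMIs 0.0375% ± 0.0327 of sham and 0.714% ± 0.288 of MCAO members held at least 2 UMIs of 8 genes of late phases (Mki67, Top2a, Ccna2, Ccnb1, Ccnb2, Cdk1, Cdc20 and Birc5). The unthinned shares were 0.123% ± 0.0217 and 2.24% ± 0.611, and those of endothelial barcodes 0.0667% ± 0.0577 in both groups. The range of the MCAO libraries, 1.57 to 2.77% unthinned, lay above that of sham, 0.105 to 0.147%.

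Rapid response genes and the clock differed in direction. Of 22 immediate early genes 15 rose and 2 fell, and among barcodes of 2000 to 4000 UMIs 18 rose and none fell. Ier3, an early survival gene, was 64.1, 64.7 and 60.6 CPM in the sham and 332, 308 and 364 CPM in the MCAO libraries (2.41 ± 0.07), with 413 CPM in endothelial barcodes, Dusp2 rose from 22.5 ± 3.41 to 73.99 ± 16.5 CPM (1.71), and Fos, which also responds to tissue dissociation, from 2643 ± 88.3 to 3782 ± 127 CPM (0.52). Of 16 glucocorticoid-responsive genes 12 rose and 2 fell. Tgm2, a transglutaminase, rose from 35.2 ± 2.76 to 91.9 ± 4.03 CPM (1.38) and Fkbp5, a receptor cochaperone, from 47.8 ± 4.51 to 72.4 ± 14.8 CPM (0.59), the change of Tgm2 being 0.90 among barcodes of 2000 to 4000 UMIs, while Tsc22d3, also called Gilz, fell from 317 ± 9.31 to 214 ± 27.1 CPM (-0.57). Of 17 clock genes 7 fell and 4 rose, and at 20 or more marker UMIs 5 of 15 fell and 2 rose. Dbp, an output factor of the clock (chr7:45705088-45710203, mm10), was 85.9, 86.9 and 84.9 CPM in the sham and 10.3, 13.8 and 8.63 CPM in the MCAO libraries (-2.97 ± 0.13, adjusted p = 9.89e-14). Per3 was 57.6, 62.7 and 62.4 CPM in the sham and 20.9, 15.3 and 10.98 CPM in the MCAO libraries (-1.94 ± 0.15), and Tef, a relative of Dbp, fell from 43.7 ± 6.31 to 12.96 ± 1.19 CPM (-1.75). Nfil3, a repressor that opposes Dbp, rose from 3.35 ± 0.755 to 23.2 ± 6.51 CPM (2.76), and Arntl rose from 2.24 ± 0.486 to 6.09 ± 0.205 CPM (1.43). The time of day of collection is not in the labels.

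Of 22 targets of p53 and genes of cell death 13 rose and 3 fell. Gadd45b, a stress sensor, was 35.2, 36.9 and 41.3 CPM in the sham and 198, 172 and 206 CPM in the MCAO libraries (2.34 ± 0.08), and Pmaip1, which encodes the death protein Noxa, rose from 15.4 ± 0.831 to 53.9 ± 2.47 CPM (1.81). Nlrp3, the inflammasome sensor, rose from 29.6 ± 4.42 to 47.4 ± 5.62 CPM (0.68), whereas Gsdmd, the pore-forming gasdermin D, fell from 107 ± 13.2 to 67.8 ± 3.27 CPM (-0.66). In members with 20 or more marker UMIs 8 rose. Of 32 genes of motility and the cytoskeleton 22 rose and 5 fell. Tuba1c, a tubulin, was 17.2, 15.2 and 14.9 CPM in the sham and 79.2, 78.1 and 88.6 CPM in the MCAO libraries (2.38 ± 0.11), Itga5, the fibronectin receptor subunit, rose from 6.87 ± 1.33 to 35.2 ± 5.36 CPM (2.36), and Capg, an actin-capping protein, from 48.6 ± 3.81 to 148 ± 14.01 CPM (1.61), with 265 CPM in endothelial barcodes of MCAO and a change of 0.69 among barcodes of 2000 to 4000 UMIs. Rhoh, a leukocyte GTPase, fell from 300.4 ± 10.97 to 181 ± 9.52 CPM (-0.73), and the abundant actin-binding Tmsb4x did not pass (0.07).

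The members were not uniform in MCAO. They were divided by their marker UMIs into 8 to 11, 12 to 19 and 20 or more, and plain CPM are given per library, as a description because the markers chose the strata. Tnf was 306, 343 and 363 CPM at 20 or more marker UMIs and 407, 403 and 516 CPM at 8 to 11 in MCAO, and 24.5, 27.3 and 29.9 CPM in the top stratum of sham. The top stratum of every MCAO library thus held more Tnf than that of any sham library. Ccl12 went from 2776, 3098 and 3644 CPM in the top to 7018, 7151 and 6219 CPM in the bottom stratum, and Msr1 from 60.5, 86.6 and 99.2 to 188, 194 and 265 CPM. In each of these genes every library of the bottom stratum stood above every library of the top one.

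Genes of resting microglia ran the opposite way within MCAO. Slc2a5 was 183, 140.5 and 153 CPM in the top and 60.9, 67.9 and 58.7 CPM in the bottom stratum, against 341, 332 and 316 and 204, 207 and 205 CPM in sham. Sall1 in the top stratum was 53.6, 53.9 and 59.02 CPM in MCAO and 127, 127 and 128 CPM in sham. Within the top stratum every MCAO library thus held less Slc2a5 and Sall1 than every sham library. Mcm6 was 43.2, 63.5 and 47.7 CPM in the top and 30.4, 32.9 and 31.2 CPM in the bottom stratum of MCAO, the opposite order to Tnf, Ccl12 and Msr1. The median total of MCAO members was 3136 to 3838 UMIs in the top and 2857 to 3569.5 in the bottom stratum. In sham it was 2471.5 to 2552.5 UMIs in the top stratum. That stratum has no upper limit and 20 marker UMIs were a larger part of a sham barcode, so the groups were not matched in marker level. Outside the rule, MCAO barcodes with 2 to 7 marker UMIs and macrophage genes held 358, 327 and 356 CPM of Msr1 and 22.4, 24.8 and 20.1 CPM of Slc2a5, and Spp1-high barcodes 556, 553 and 483 and 5.65, 3.74 and 9.32 CPM.

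**Figure D4:**
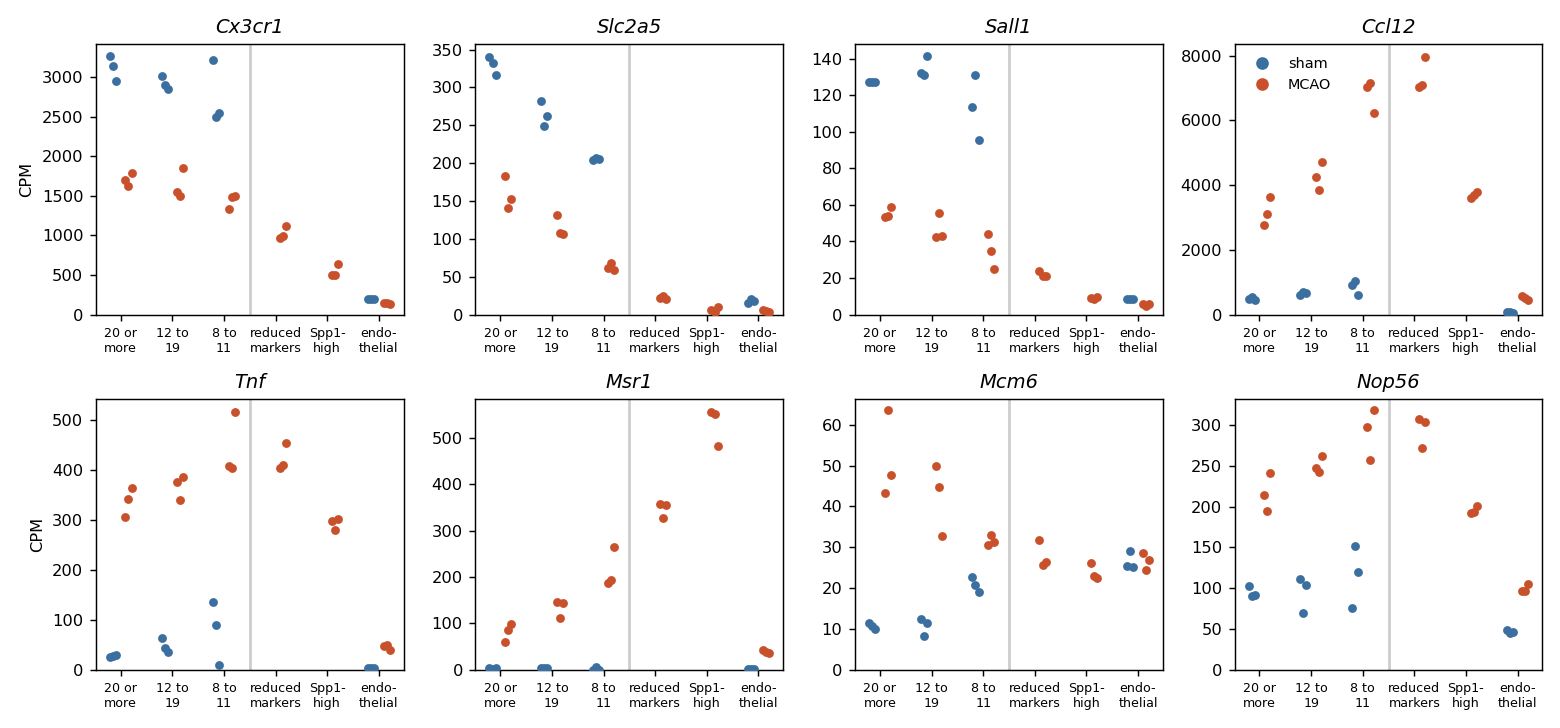
CPM without TMM scaling (y axes) of 8 genes in barcodes sorted by the UMIs of the 4 markers (20 or more, 12 to 19, 8 to 11; left of the grey line, the members) and in reduced-marker, Spp1-high and endothelial barcodes, with 1 point per library; sham points of the reduced-marker and Spp1-high gates are left out. Tnf, Ccl12 and Msr1 are higher and Slc2a5 lower at 8 to 11 marker UMIs than at 20 or more in the MCAO libraries.

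Barcodes with at least 5 UMIs of Mrc1, Pf4 and Cd163, genes of border macrophages of the meninges and perivascular spaces, were compared with the members. This tested which changes differed between the gates in the same libraries. The border barcodes numbered 199, 220 and 250 in sham and 255, 255 and 169 in MCAO. Their make-up differed between the groups. Monocyte-derived markers summed to 487 to 604 CPM in sham and 1968 to 2025 CPM in MCAO. Neutrophil markers summed to 218 to 398 and 627 to 906 CPM. In edgeR's interaction test with library as a term, the change was higher in the members for 476 of 10224 genes and lower for 343 (8.01% in all). A difference below is the log2 change in the members minus that in the border macrophage-like barcodes. The 5 largest positive differences were in Msr1, Lilrb4a, Ms4a4a, Gpr65 and Hcar2. Msr1 went from 3.02 to 146 CPM in the members and 156 to 426 CPM in border macrophage-like barcodes, a difference of 4.10 ± 0.20 (adjusted p = 2.79e-23). Lilrb4a went from 6.13 to 259 CPM and 207 to 507 CPM (4.06 ± 0.16). Gpr65, an acid-sensing receptor, went from 9.88 to 61.9 CPM and, in the other direction, 106 to 58.2 CPM (3.51 ± 0.22, adjusted p = 1.19e-19). Hcar2, a receptor for hydroxybutyrate, went from 3.71 to 62.1 CPM and 6.48 to 10.8 CPM (3.32 ± 0.61). Ms4a4a was very low in the members, 0.933 to 5.74 CPM, against 67.6 to 24.7 CPM in border macrophage-like barcodes (4.001 ± 0.46).

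The 5 largest differences on the other side included 3 chemokines. Ccl9 went from 252 to 199 CPM in the members and 269.8 to 2111 CPM in border macrophage-like barcodes (-3.30 ± 0.09, adjusted p = 1.49e-34), and Ccl6 from 138 to 166 CPM and 152 to 2373 CPM (-3.72 ± 0.28). S100a6, a calcium-binding protein, went from 26.5 to 49.3 CPM and 9.79 to 264 CPM (-3.82 ± 0.29). Saa3, an acute phase protein, went from 0.364 ± 0.6300 to 23.1 ± 3.31 CPM and from 2.34 to 1543 CPM (-3.51 ± 0.78), but its adjusted p was 1 without sham library 3. Ccl5 went from 25.1 to 30.1 CPM and 9.32 to 193 CPM (-3.93 ± 0.66) and did not pass without sham library 2, MCAO library 2 or MCAO library 3 (adjusted p from 0.0600 to 0.0982). Which cells gave the signal of the border gate in MCAO was not tested. Of 21 cytokines and chemokines tested, 6 differed with the higher change in the members and 3, Ccl9, Ccl6 and Ccl5, with the lower, and the median difference was -0.06. The 6 were Ccl12 (2.94 ± 0.23), Ccl7 (3.31 ± 0.22), Tnf (2.82 ± 0.14), Cxcl10 (3.16 ± 0.50), Ccl2 (1.61 ± 0.21) and Ccl3 (1.09 ± 0.07).

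Many cell cycle genes differed in their change between these gates. Of 23 tested, 11 differed and all of these were higher in the members, with a median change of 1.45 in the members and -0.16 in the others, where 4.66% of all genes were higher in the difference. Mcm3 went from 23.6 to 58.6 CPM and 31.7 to 19.7 CPM (1.98 ± 0.31, adjusted p = 3.42e-06), and Cdk1 from 5.21 to 18.2 CPM and 19.5 to 15.5 CPM (2.13 ± 0.44). Of 15 heat shock genes 8 were higher in the difference and none lower, Hspa1b by 0.94 ± 0.18 and Dnajb1, a cochaperone, by 0.79 ± 0.08. Of 31 ribosomal proteins 22 were higher and 1 lower. Motility genes were the reverse, with 15 of 32 lower (3.35% of all genes were) and 2 higher, among them Capg (-2.40 ± 0.22) and Vim (-1.31 ± 0.22). Genes of resting microglia differed in both directions, with 4 higher and 6 lower of 44 where 4.66 and 3.35% of all genes were, and median changes of -0.78 and -0.58. P2ry13 fell less in the members than in border macrophage-like barcodes (1.08 ± 0.14). The 4 marker genes of the rule summed to 733 to 978 CPM in border barcodes of sham and 229 to 289 CPM in those of MCAO. In endothelial barcodes they summed to 471 to 528 and 160 to 202 CPM. The part of free microglial RNA in the changes of the border barcodes was not tested.

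**Figure D5:**
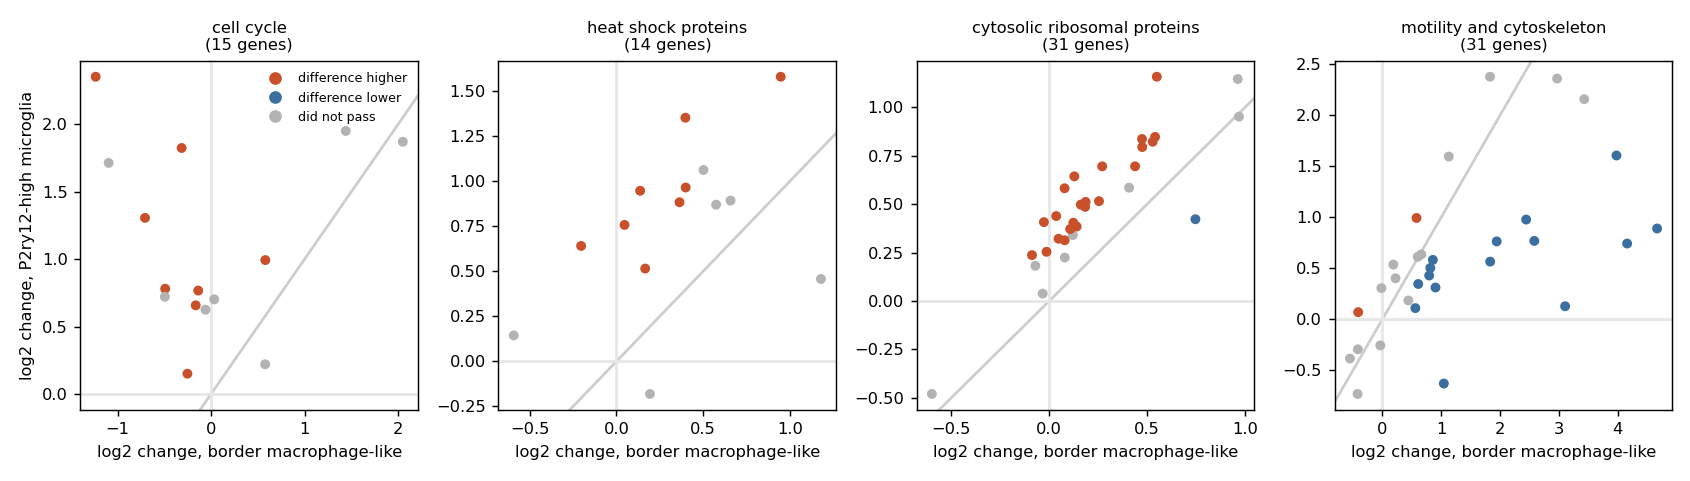
Change of each gene (log2 of MCAO over sham) in the members (y axis) against border macrophage-like barcodes (x axis) for 4 gene lists; the grey diagonal marks equal change, and colour marks a difference past the threshold. Genes are shown where both changes could be fitted. Cell cycle genes called different lie above the diagonal and most called motility genes below it.

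The closest barcodes by marker level had 2 to 7 marker UMIs and at least 10 of 5 macrophage genes (C1qa, C1qb, C1qc and Csf1r among them). The other limits of the rule were unchanged. These barcodes numbered 583, 633 and 459 in MCAO but 45, 57 and 82 in sham. The sham ones were not microglia alone: Ttr, the transthyretin gene of choroid plexus, took 120998 to 174171 CPM of them, against 11229 to 20700 CPM in MCAO. Their median depth was 2946, 3803 and 5446.5 UMIs in sham and 3338, 3313 and 3966 in MCAO. The interaction test gave 1410 genes higher and 1327 lower in the members of 11223 (24.4%), and 130 and 96 when both gates were held to 2000 to 4000 UMIs. Among the leading differences was Htr2c, a serotonin receptor of choroid plexus (4.21), which was 1.89 and 1.34 CPM in sham and MCAO members but 71.8 and 2.69 CPM in the reduced-marker barcodes. Il4ra, a receptor chain for interleukin 4, rose in the members by 1.31 (70.2, 68.3 and 73.1 CPM in the sham and 176, 179.7 and 168 CPM in the MCAO libraries), with a difference of -2.75 from the reduced-marker barcodes.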

How the data were processed

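Brain cells were profiled in 6 droplet libraries, 3 sham and 3 MCAO. The deposited matrices hold raw UMI counts per gene (27998 in the table) and called barcode; per the submitters' processing notes Cell Ranger and STAR were run with mm10, with versions not given in the sources used here. Papain digestion, straining and Percoll removal of myelin preceded loading, per the labels' protocols.

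Barcodes were selected by the stated rule with no clustering and no doublet caller; an alternative left out barcodes with markers of another class or over 10000 UMIs. Counts were summed per library and tested with edgeR 4.0.16 (filterByExpr, TMM, robust quasi-likelihood; R 4.3.3), group being the only term, or library and gate by group for differences between gates. Adjusted p-values are Benjamini-Hochberg over all genes tested. The 10 genes of the rule stayed in the fitted table and are described without a test. On simulated counts the fit called 81.2% and 84% of genes changed 2-fold down and up, and 4 of 10550 unchanged genes. Far fewer genes were changed there than the 44.9% called here, and all genes shared the same dispersion. These rates may therefore not hold for the data. Replicate libraries differed beyond sampling noise (chi-square per degree of freedom 1.63 to 3.05), so none was taken as a copy of another's counts. This cannot show whether libraries shared an animal or pool, since technical differences also raise it.

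Genes named across all genes were the 12 highest and 12 lowest changes among calls with a mean of at least 50 CPM, no overlap of groups and a level of at least 10% of that in the highest comparison gate, without the rule's genes, markers of other cells, mitochondrial, ribosomal, hemoglobin and provisional genes. From each list at least the 3 called members with the largest change and 20 CPM were taken, and from each interaction the 5 highest and 5 lowest. A few genes are not reported here. The members of the gate and the 29 gene lists were chosen with earlier results of these data known. Gene positions are from GENCODE vM21 on mm10, and promoter sequences from RefSeq, found for 473 of 614 list genes. Thinning and promoter searches used numpy and pandas. Alternatives covered DESeq2 1.42.0, scaling, filters, depth, gate thresholds, single libraries and a replicate block.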

Additional observations from a re-analysis of the deposited data

Results flagged for a closer look

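The change between MCAO and sham differed between the P2ry12-high microglia and border macrophage-like barcodes of the same libraries for 10 genes singled out by size (edgeR's interaction test, 3 libraries per group). It was higher in the microglia by 4.10 for Msr1, 4.06 for Lilrb4a, 4.001 for Ms4a4a, 3.51 for Gpr65 and 3.32 for Hcar2. It was lower in them, with differences of -3.93 for Ccl5, -3.82 for S100a6, -3.72 for Ccl6, -3.51 for Saa3 and -3.30 for Ccl9. Ccl5 and Saa3 were not called in every fit that left out a library.

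Against reduced-marker microglia-like barcodes the differences were 5.09 for Ccl17, 4.21 for Htr2c, 4.11 for Pifo, 3.94 for Pcolce2 and 3.94 for Cox7a1 on the higher side. On the lower side they were -3.56 for Cdk5r1, -3.06 for Hist1h3e, -2.96 for Rnf128, -2.95 for Upk1b and -2.75 for Il4ra. In the members Pifo was 1.92 and 1.83 CPM in sham and MCAO, Pcolce2 1.93 and 1.96 CPM and Cox7a1 3.59 and 3.66 CPM, so these hardly changed there. In the reduced-marker barcodes they went from 56.0 to 3.08, from 63.1 to 4.02 and from 67.0 to 4.69 CPM. The sham barcodes of the reduced-marker gate held 120998 to 174171 CPM of Ttr. The value for Ccl17 fell to 0.57 without sham library 3 (adjusted p = 0.879). Upk1b was not called without sham library 2 (adjusted p = 0.0875) or MCAO library 3 (0.141). With both gates at 2000 to 4000 UMIs, Hist1h3e (adjusted p = 0.0852), Rnf128 (0.536) and Upk1b (0.547) were not called.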

How the results depend on the processing

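In the comparison of MCAO with sham (2482 genes higher, 2416 lower), leaving out 1 library at a time gave 2221 to 2366 higher and 2103 to 2286 lower. DESeq2 gave 1972 and 1560, Spp1 under 3 UMIs 1588 and 1312, thinning barcodes to 2000 UMIs before the gate 1585 and 1358, barcodes of 2000 to 4000 UMIs 1605 and 1411, and at least 20 marker UMIs, an alternative chosen after seeing the data, 1500 and 1246. Of 4607 calls tested at 20 or more marker UMIs, 2600 were called in the same direction and none in the opposite one. At 2000 to 4000 UMIs these were 2815 of 4689, with 3 opposite. Scaling by library size alone gave 2112 higher and 2868 lower, no filter 2506 and 2816.

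Same-numbered libraries did not deviate together more than others (r of -0.09, 0.14 and -0.22 over 2922 genes). Pairs with different numbers gave -0.22 to 0.25. With 3 libraries per group this cannot decide whether same-numbered libraries were handled together. With the replicate block 2374 genes were higher and 2307 lower.

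Of 100 genes named across all genes or lists, H2-DMb1 changed sign, at 0.0237 with 20 or more marker UMIs. Tlr1, Hilpda and H2-DMb1 lost their call under at least 1 alternative. Leaving out a library gave 319 to 429 higher and 247 to 316 lower differences from border macrophage-like barcodes, and 947 to 1537 and 907 to 1421 from reduced-marker ones. The latter were 130 and 96 at 2000 to 4000 UMIs, and 1146 and 1847 by library size alone, which put 38.3% of calls on the higher side instead of 51.5%. The causes were not tested. Narrower gates also hold fewer barcodes, and the part of this was not tested either. Profiles of 2664663 to 2758592 UMIs in MCAO limit genes of a few CPM.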
